A study of Homo sapiens with 27 samples.

Results

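The enzymes described here carry nitrogen and carbon between glutamine, glutamate, aspartate, alanine, asparagine and proline. They are 9 genes of the 27115 measured (GLUD1, GLUL, GOT1, GOT2, GPT2, ASNS, PYCR1, ALDH18A1 and ALDH4A1), listed by the step their product catalyses and found in the data by gene symbol. The list was drawn up with earlier results of these data known. The study asked how loss of SIRT3, the NAD-dependent deacetylase of mitochondria, alters gene expression in diffuse large B-cell lymphoma (DLBCL), an aggressive cancer of mature B cells. RNA was sequenced from established DLBCL lines expressing a control shRNA (shCTRL) or shRNAs against SIRT3 (shSIRT3-1 and shSIRT3-2). Each of the 3 lines had 3 replicates of each of the 3 shRNAs, which gave 27 libraries in 9 groups. All of them were taken on day 8 after lentiviral delivery, and by the paper's general methods puromycin was added for selection after delivery.

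The study classes Karpas422 as a line of the oxidative phosphorylation subtype, OCI-Ly1 as germinal center B-cell-like and HBL1 as activated B-cell-like. OCI-Ly1 was grown in Iscove's medium, and Karpas422 and HBL1 in RPMI with L-glutamine, so medium and line cannot be told apart for OCI-Ly1. All 27 libraries, controls included, came from cells that had taken up a lentiviral vector coding for a yellow fluorescent protein, and each line is a single culture model. Nothing in the labels says whether replicates were separate infections, so p-values measure the spread between these libraries only. Levels are given in CPM, read counts scaled to the library total that the authors divided by, a scale that does not correct for gene length. A fold change is on the log2(CPM + 0.1) scale, against shCTRL unless another group is named. Adjusted p-values are Benjamini-Hochberg values of limma over all genes tested. To be called, a difference had to exceed 1.5-fold in size and have an adjusted p under 0.05.

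Glutamine is the main nitrogen donor of dividing lymphocytes, and glutamate, formed from it, stands at the crossing of these pathways. GLUD1 and the aminotransferases turn glutamate into α-ketoglutarate, ASNS uses the amide of glutamine to make asparagine from aspartate, and ALDH18A1 and PYCR1 build proline from glutamate while ALDH4A1 returns proline carbon to it. Transcription of ASNS is the textbook case of amino acid control: when amino acids run short, ATF4 binds an element in its promoter made of a C/EBP part and an ATF part.

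The core letters of that element, searched here as TGATGNAA on both strands, were looked for from 250 bases before to 50 bases after the RefSeq start sites (GRCh38.p14). Such windows were at hand for 7 of the 9 genes, all but GPT2 and PYCR1. The stretches shown are the 60 bases around each match, 5′ to 3′ on the strand of the gene, because these 2 genes are among those with lower RNA after SIRT3 knockdown below. Capitals mark the match, which in GOT1 reads on the opposite strand.
ASNS: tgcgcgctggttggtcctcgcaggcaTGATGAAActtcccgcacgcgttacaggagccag
GOT1: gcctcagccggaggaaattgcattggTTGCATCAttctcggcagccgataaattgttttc
The ASNS stretch is chr7:97872443-97872502 (minus strand) and its match begins 68 bases before the start site. The GOT1 stretch is chr10:99430789-99430848 (minus strand) with the match 198 bases before the start. GLUD1, GLUL, GOT2, ALDH18A1, ALDH4A1 and the second start site of ASNS had no match in their windows. Of 35116 windows of the same length over all genes, 3.62% held the letters. A match is a description of these bases, and no binding was measured.

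SIRT3 RNA fell with each shRNA in each line. With shCTRL it lay between 9.14 and 16.4 CPM in the 9 libraries, with shSIRT3-1 between 1.06 and 2.79 CPM, and with shSIRT3-2 between 2.84 and 6.24 CPM. Over the 3 lines the fold change was −2.45 log2 (SE 0.17) with shSIRT3-1 and −1.37 (SE 0.17) with shSIRT3-2, so the shSIRT3-2 libraries kept more SIRT3 RNA. Libraries held between 28694398 and 53405456 reads on genes, and all 8 B-cell genes checked were at or above 1 CPM in every library. Their summed level was lower with shSIRT3-2 than with shCTRL in Karpas422 (1462 to 2002 against 2079 to 3009 CPM) and in HBL1 (1654 to 1789.6 against 2039 to 2496 CPM), without overlap. Markers of T, myeloid, epithelial and fibroblast cells were near 0 for the most part, with exceptions that moved with the shRNAs. The fibroblast gene DCN was at 401 to 423 CPM in Karpas422 with shCTRL and at 104 to 292 CPM with the SIRT3 shRNAs, with the other 3 fibroblast markers under 1 CPM there. COL1A2 in HBL1 lay at 12.6 to 15.2 CPM with shCTRL, 1.72 to 4.92 CPM with shSIRT3-1 and 36.8 to 62.0 CPM with shSIRT3-2. Of the T-cell markers, CD3G in Karpas422 was at 35.8 to 41.4 CPM with shCTRL and lower, at 17.6 to 30.2 CPM, with shSIRT3-1. With shSIRT3-2 it was at 29.8 to 39.1 CPM, which overlapped the controls. The epithelial gene EPCAM in HBL1 was at 4.72 to 7.27 CPM with shCTRL and at 3.50 to 4.40 CPM with the SIRT3 shRNAs. The part of these genes in the results was not tested.

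A few libraries stood apart from both others of their group by over 1.5 times. OCI-Ly1 shCTRL replicate 2 was above both other controls for 4.21% of genes, and GOT1, GPT2, ASNS and PYCR1 were among them. HBL1 shSIRT3-1 replicate 3 was below both others for 16.0% of genes and above for 14.1%, ASNS and PYCR1 being below. Replicate 3 of shSIRT3-1 and of shSIRT3-2 in Karpas422 were below for 2.78% and 4.89% of genes, GPT2 and ASNS included. Values without these libraries are given with the fits of each line. Some other libraries also stood apart. HBL1 shCTRL replicate 3 was above for 4.57% of genes and below for 5.81%, with no enzyme of the 9 among them. OCI-Ly1 shSIRT3-1 replicate 2 was below for 4.38% of genes, also without any of the 9. OCI-Ly1 shSIRT3-2 replicate 2 was below for 4.64% of genes, and its GLUL was above. HBL1 shSIRT3-2 replicate 3 was above for 3.92% of genes, ALDH4A1 included.

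Over the 3 lines, ASNS, GPT2, GOT1 and PYCR1 fell with each SIRT3 shRNA, and GLUD1 fell with shSIRT3-1. No enzyme of the 9 rose, where 3.92% (shSIRT3-1) and 3.29% (shSIRT3-2) of all genes were called higher, and GOT2 and ALDH18A1, which also use glutamate, stayed within 0.18 log2 of the control on average. All 9 passed the filter on low values over the 3 lines. In bulk RNA such as this, less RNA per cell and fewer cells carrying it cannot be told apart. With shSIRT3-1, 5 of 9 were called lower, where 9.09% of the 13076 genes tested were called lower and 13.0% in either direction. With shSIRT3-2, 4 of 9 were called lower, against 10.2% of all genes lower and 13.5% in either direction. The 4 called lower with both shRNAs stand beside 3.98% of all genes. The median fold change of the 9 was −0.66 log2 with shSIRT3-1 and −0.39 with shSIRT3-2, and that of all genes −0.05 and −0.03. The shRNAs share their shCTRL libraries, so the counts for shSIRT3-1 and shSIRT3-2 are not independent of each other. Because the 9 were chosen with earlier results of these data known, their counts and medians beside those of all genes are a description.

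**Figure D1:**
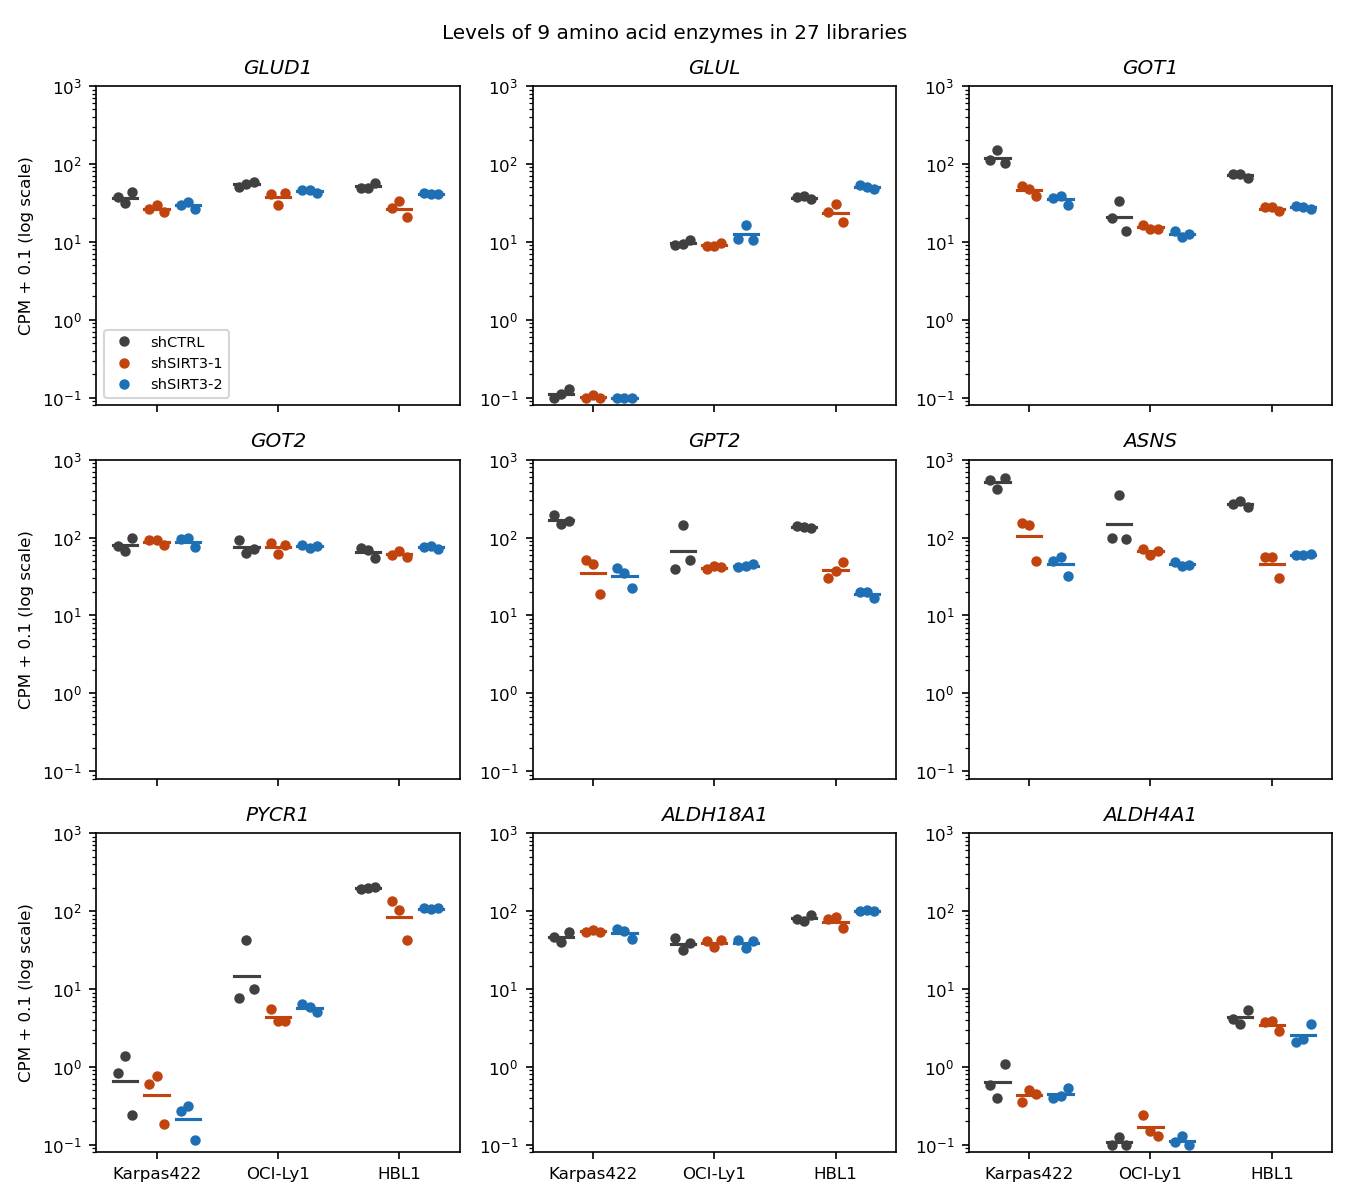
Level of each enzyme gene in every library (CPM + 0.1, log scale) by cell line and shRNA. Points are the 3 replicates of a group and bars the mean of the log values. ASNS lies below its controls with both SIRT3 shRNAs in every line, GOT2 and ALDH18A1 stay near theirs, and GLUL, PYCR1 and ALDH4A1 differ most between lines.

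ASNS, asparagine synthetase (chr7:97480989-97501854 in hg19, minus strand), had the largest fall of the 9 enzymes in the fit over the 3 lines. In Karpas422 its 3 control libraries were at 547, 418 and 587 CPM, against 153, 144 and 49.9 CPM with shSIRT3-1 and 50.4, 56.6 and 32.4 CPM with shSIRT3-2. HBL1 controls were at 269, 291 and 247 CPM, with 56.0, 56.0 and 30.3 CPM under shSIRT3-1 and 59.8, 59.97 and 61.3 CPM under shSIRT3-2. In OCI-Ly1 the controls were at 98.0, 354 and 95.6 CPM, the shSIRT3-1 libraries at 72.1, 59.9 and 67.8 CPM and the shSIRT3-2 libraries at 48.1, 42.7 and 44.2 CPM. Every knockdown library was below every control of its own line, in Karpas422 and HBL1 by a wide margin and in OCI-Ly1 by a narrower margin against controls 1 and 3. Over the 3 lines the fold change was −2.01 log2 (SE 0.28, adjusted p = 6.1e-06) with shSIRT3-1 and −2.46 (SE 0.28, adjusted p = 6.5e-07) with shSIRT3-2. Leaving out OCI-Ly1 shCTRL replicate 2 gave −1.91 (adjusted p = 2e-05) and −2.36 (adjusted p = 2.2e-06). With all libraries kept, ASNS was the only enzyme of the 9 called in the fit of OCI-Ly1, with shSIRT3-2 (−1.73, SE 0.41, adjusted p = 0.033). Without OCI-Ly1 shCTRL replicate 2 that value was −1.11 (adjusted p = 0.0075). The call was lost, with an adjusted p of 0.052 to 0.10, when shCTRL replicate 3, shSIRT3-1 replicate 1 or 3, or any shSIRT3-2 replicate was left out.

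GPT2, the mitochondrial alanine aminotransferase (chr16:46918274-46965201, plus strand), makes alanine and α-ketoglutarate from pyruvate and glutamate. Karpas422 controls were at 194, 147 and 164 CPM, with 50.7, 46.1 and 18.8 CPM under shSIRT3-1 and 40.0, 35.1 and 22.5 CPM under shSIRT3-2. HBL1 controls were at 139, 136 and 134 CPM, with 30.3, 37.2 and 48.9 CPM under shSIRT3-1 and 19.8, 20.1 and 16.6 CPM under shSIRT3-2. In OCI-Ly1 the controls were at 39.4, 146 and 51.5 CPM, against 38.9, 42.8 and 41.4 CPM with shSIRT3-1 and 41.7, 42.5 and 46.1 CPM with shSIRT3-2. GPT2 was therefore well below the controls in Karpas422 and HBL1, while in OCI-Ly1 the knockdown libraries lay around and between controls 1 and 3. Over the 3 lines the fold change was −1.59 log2 (SE 0.27, adjusted p = 7.1e-05) with shSIRT3-1 and −1.96 (SE 0.27, adjusted p = 7.2e-06) with shSIRT3-2. In OCI-Ly1 alone it was −0.70 (95% CI −1.54 to 0.14) and −0.62 (95% CI −1.46 to 0.22), and without shCTRL replicate 2 it was −0.13 and −0.05.

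GOT1, the cytosolic aspartate aminotransferase of the malate-aspartate shuttle (chr10:101156627-101190381, minus strand), followed the same pattern. Karpas422 controls were at 113, 149.8 and 103 CPM, with 51.8, 47.5 and 38.6 CPM under shSIRT3-1 and 36.99, 39.0 and 29.7 CPM under shSIRT3-2. HBL1 controls were at 73.2, 75.0 and 66.7 CPM, with 27.7, 27.6 and 24.8 CPM under shSIRT3-1 and 29.1, 27.7 and 26.1 CPM under shSIRT3-2. OCI-Ly1 controls were at 20.3, 32.9 and 13.5 CPM, the shSIRT3-1 libraries at 16.5, 14.7 and 14.5 CPM and the shSIRT3-2 libraries at 13.9, 11.3 and 12.4 CPM. The groups were apart in Karpas422 and HBL1 and overlapped in OCI-Ly1, where control replicate 3 was below all shSIRT3-1 libraries and 1 of the shSIRT3-2 libraries. Over the 3 lines the fold change was −1.09 log2 (SE 0.15, adjusted p = 5.4e-06) with shSIRT3-1 and −1.29 (SE 0.15, adjusted p = 7.8e-07) with shSIRT3-2. GOT2, which catalyses the same reaction inside mitochondria (chr16:58741035-58768246, minus strand), ranged from 54.1 to 97.8 CPM over the 27 libraries with every knockdown group overlapping its controls. Its fold change over the lines was 0.02 (95% CI −0.17 to 0.20) with shSIRT3-1 and 0.14 (95% CI −0.05 to 0.32) with shSIRT3-2.

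PYCR1, which reduces pyrroline-5-carboxylate to proline in mitochondria (chr17:79890260-79900288, minus strand), was at very different levels in the lines. HBL1 controls were at 191, 195 and 202 CPM, with 135, 103 and 42.7 CPM under shSIRT3-1 and 109, 106 and 108 CPM under shSIRT3-2. OCI-Ly1 controls were at 7.68, 42.6 and 9.82 CPM, the shSIRT3-1 libraries at 5.39, 3.812 and 3.798 CPM and the shSIRT3-2 libraries at 6.30, 5.70 and 4.93 CPM. In Karpas422, where PYCR1 did not pass the filter, controls were at 0.74, 1.29 and 0.14 CPM and the 6 knockdown libraries at 0.02 to 0.67 CPM. Knockdown libraries were below all controls in HBL1 and OCI-Ly1 and overlapped them in Karpas422. The fold change over the lines was −1.18 log2 (SE 0.36, adjusted p = 0.011) with shSIRT3-1 and −1.28 (SE 0.36, adjusted p = 0.0063) with shSIRT3-2. It was −0.95 (adjusted p = 0.026) and −1.05 (adjusted p = 0.015) without OCI-Ly1 shCTRL replicate 2, and leaving out replicate 2 of every group ended both calls (adjusted p = 0.098 and 0.096). In HBL1 alone PYCR1 fell with shSIRT3-1 (−1.22, SE 0.34, adjusted p = 0.022) and was at −0.87 (95% CI −1.65 to −0.09, adjusted p = 0.081) with shSIRT3-2. Without HBL1 shSIRT3-1 replicate 3 the first of these values was −0.73 (adjusted p = 0.00095). Its call was lost, at an adjusted p of 0.057 to 0.065, without any one of the 3 HBL1 controls. The second value was called without HBL1 shSIRT3-1 replicate 1 (adjusted p = 0.043) or replicate 3 (adjusted p = 0.00018). The PYCR1 gene overlaps MYADML2 on its own strand, and reads in the shared part cannot be told apart.

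The other enzymes of proline synthesis and breakdown gave no call over the 3 lines. ALDH18A1, which makes pyrroline-5-carboxylate from glutamate (chr10:97365698-97416468, minus strand), lay between 31.7 and 103 CPM in all libraries and differed from control by 0.05 log2 (95% CI −0.14 to 0.24) with shSIRT3-1 and 0.18 (95% CI −0.01 to 0.37) with shSIRT3-2. Its HBL1 shSIRT3-2 libraries, at 101.6, 103 and 99.7 CPM, were above the controls at 78.2, 73.7 and 89.6 CPM, and the difference of 0.34 log2 had an adjusted p of 0.077. ALDH4A1, the dehydrogenase that oxidises pyrroline-5-carboxylate back to glutamate (chr1:19197924-19229218, minus strand), was under 1 CPM in every Karpas422 and OCI-Ly1 library. In HBL1 it was at 4.01, 3.51 and 5.33 CPM in the controls, 3.69, 3.77 and 2.76 CPM with shSIRT3-1 and 2.00, 2.19 and 3.48 CPM with shSIRT3-2. The shSIRT3-2 value in HBL1 was called lower (−0.74, SE 0.25, adjusted p = 0.047), with its highest library just under the lowest control. That call was lost, at an adjusted p of 0.056 to 0.16, without any one HBL1 control, without shSIRT3-1 replicate 1 or 2, and without shSIRT3-2 replicate 1 or 2. It was also lost with pseudocount 1 (−0.58), without the filter (adjusted p = 0.07), under quantile scaling (−0.39, adjusted p = 0.23), under median-ratio scaling (adjusted p = 0.073) and in edgeR (adjusted p = 0.069).

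GLUD1, glutamate dehydrogenase (chr10:88809959-88854600, minus strand), fell over the 3 lines with 1 of the 2 SIRT3 shRNAs. Karpas422 controls were at 37.002, 31.6 and 43.0 CPM, with 26.3, 29.5 and 24.1 CPM under shSIRT3-1 and 29.7, 32.5 and 26.4 CPM under shSIRT3-2. OCI-Ly1 controls were at 50.3, 55.3 and 58.7 CPM, with 41.1, 29.98 and 42.0 CPM under shSIRT3-1 and 46.1, 46.2 and 42.5 CPM under shSIRT3-2. HBL1 controls were at 48.7, 48.6 and 57.5 CPM, with 27.5, 33.0 and 20.9 CPM under shSIRT3-1 and 41.7, 41.0 and 41.2 CPM under shSIRT3-2. All 18 knockdown libraries were below the control mean of their line, and Karpas422 with shSIRT3-2 was the only group to overlap its controls. Over the lines the fold change was −0.66 log2 (SE 0.09, adjusted p = 6.7e-06) with shSIRT3-1 and −0.31 (SE 0.09, adjusted p = 0.011) with shSIRT3-2, the latter under the 1.5-fold limit. The shSIRT3-1 value was close to that limit, and without HBL1 shSIRT3-1 replicate 3 it was −0.58 (adjusted p = 3.2e-06), just short of it. GLUD1 has a near-identical copy, GLUD2, and how reads were shared between them is uncertain. GLUD2 was at 5.08 to 14.6 CPM and tracked GLUD1 (Pearson r = 0.98 over the 27 libraries after subtracting the mean of each line). GLUD1 also overlaps a gene on the other strand by 683 bases, and strand was not stated to be kept.

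GLUL, glutamine synthetase (chr1:182347233-182361341, minus strand), makes glutamine from glutamate and ammonia, and its shRNA libraries went in different directions. HBL1 controls were at 37.1, 38.4 and 35.3 CPM, the shSIRT3-1 libraries below them at 24.2, 30.3 and 17.7 CPM and the shSIRT3-2 libraries above them at 53.6, 49.99 and 47.6 CPM. OCI-Ly1 controls were at 8.89, 9.27 and 10.3 CPM, with 8.71, 8.88 and 9.56 CPM under shSIRT3-1 and 10.9, 16.4 and 10.6 CPM under shSIRT3-2. In Karpas422 the 9 libraries held 5 GLUL reads in all, 4 of them in the controls. The HBL1 fold change was −0.65 log2 (SE 0.17, adjusted p = 0.016) with shSIRT3-1, which was called, and 0.45 (SE 0.17, adjusted p = 0.073) with shSIRT3-2, which was not. The first call was lost without HBL1 shCTRL replicate 1 (adjusted p = 0.051) or replicate 2 (adjusted p = 0.061), and without shSIRT3-1 replicate 3 it was −0.45. It also dropped under the fold limit with quantile scaling (−0.56), median-ratio scaling (−0.55) and edgeR (−0.51). Taken against each other in HBL1, shSIRT3-2 was 1.10 log2 above shSIRT3-1 (SE 0.17, adjusted p = 0.0024).

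**Figure D2:**
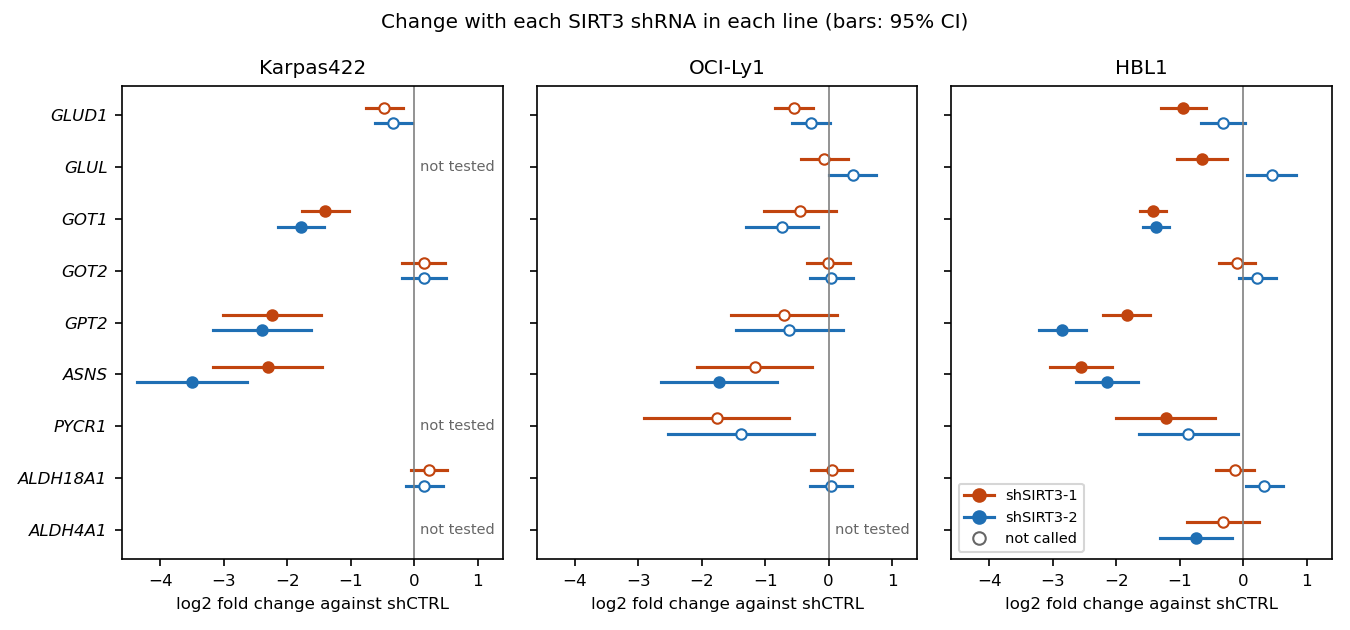
Log2 fold change against shCTRL with each SIRT3 shRNA, fitted in each line alone (9 libraries a line), with 95% confidence intervals. Filled points were called. ASNS, GPT2 and GOT1 are filled with both shRNAs in Karpas422 and HBL1, and in OCI-Ly1 only ASNS with shSIRT3-2 is.

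Fitted line by line, Karpas422 and HBL1 gave most of the calls. In Karpas422, 6 of the 9 enzymes passed the filter and GOT1, GPT2 and ASNS were called lower with each shRNA, 3 of 6 where 11.5% (shSIRT3-1) and 9.44% (shSIRT3-2) of all genes were called lower. The fold changes there ran from −1.40 log2 for GOT1 with shSIRT3-1 to −3.50 (SE 0.39, adjusted p = 0.00031) for ASNS with shSIRT3-2. In HBL1, 6 of 9 were called lower with shSIRT3-1 and 4 of 9 with shSIRT3-2, where 18.8% and 16.0% of all genes were. Without shSIRT3-1 replicate 3 in Karpas422 the shSIRT3-1 values were −1.78 for ASNS and −1.79 for GPT2, and without shSIRT3-2 replicate 3 the shSIRT3-2 values were −3.26 for ASNS and −2.15 for GPT2, each still called. Without HBL1 shSIRT3-1 replicate 3, ASNS in HBL1 was at −2.26 with shSIRT3-1 and still called. GPT2 with shSIRT3-2 had the largest HBL1 change at −2.85 log2 (SE 0.16, adjusted p = 3.2e-05). In OCI-Ly1, 8 enzymes were tested, 0 were called with shSIRT3-1 and 1 with shSIRT3-2, where 4.50% and 6.41% of all genes were called in either direction. For shSIRT3-1 in OCI-Ly1, 3 of the 8 had an unadjusted p under 0.05 in limma, and edgeR on the recovered reads called 1, PYCR1 (−2.21, adjusted p = 0.041). With the replicate number as a block limma called PYCR1 as well (−1.77, adjusted p = 0.047).

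GOT1, GPT2 and ASNS were called lower with both shRNAs in Karpas422 (3 of 6 enzymes, beside 4.79% of all genes) and in HBL1 (3 of 9, beside 7.87%). By overlap of groups, the enzymes whose 6 knockdown libraries all lay below the 3 controls were the same 3 of 6 in Karpas422, where 16.1% of all genes did. In HBL1 they were 5 of 9, with GLUD1 and PYCR1 added, beside 17.2% of all genes. In OCI-Ly1 they were GLUD1, ASNS and PYCR1, 3 of 8, beside 7.33%.

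The OCI-Ly1 values of 4 enzymes depended on shCTRL replicate 2. Without it the shSIRT3-1 fold change moved from −1.17 to −0.54 log2 for ASNS, from −0.70 to −0.13 for GPT2, from −0.45 to −0.12 for GOT1 and from −1.77 to −1.01 for PYCR1. With shSIRT3-2 it moved from −1.73 to −1.11 for ASNS, from −0.62 to −0.05 for GPT2, from −0.74 to −0.41 for GOT1 and from −1.38 to −0.62 for PYCR1. PYCR1 with shSIRT3-1 was then called (adjusted p = 0.044). Leaving out shCTRL replicate 1 had the opposite effect, and GLUD1 (−0.61), ASNS (−1.47) and PYCR1 (−2.24) were then called with shSIRT3-1, and PYCR1 (−1.85, adjusted p = 0.034) with shSIRT3-2. Without shCTRL replicate 3, GOT1 was called with shSIRT3-2 (−1.04, adjusted p = 0.043).

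**Figure D3:**
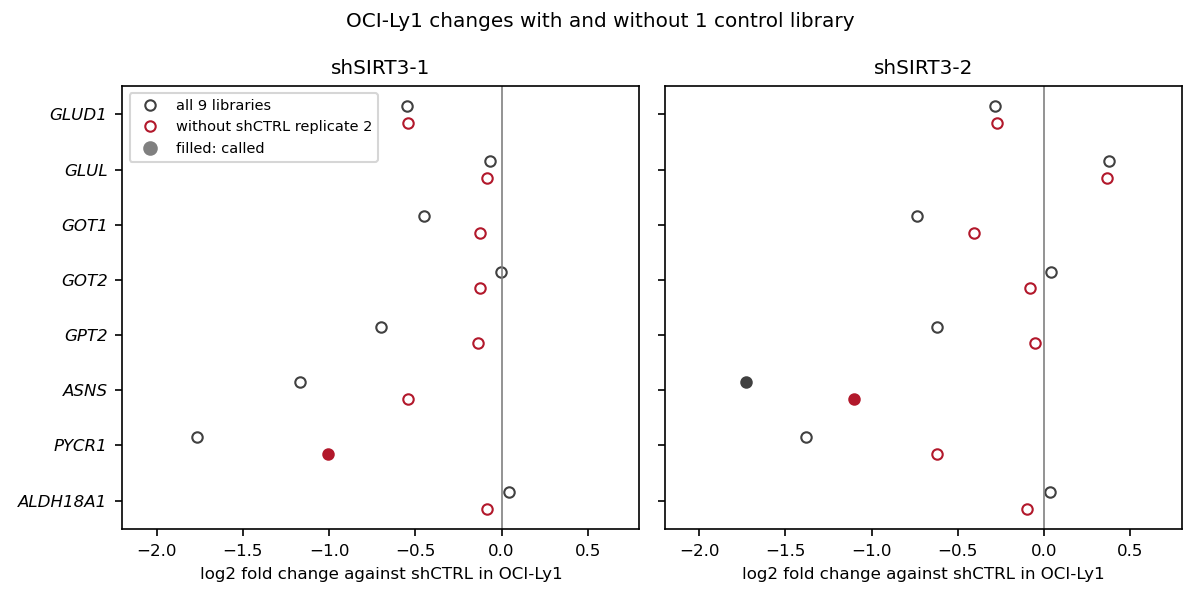
Log2 fold change in OCI-Ly1 of the 8 enzymes tested, with all 9 OCI-Ly1 libraries and without shCTRL replicate 2, for each SIRT3 shRNA. Filled points were called, and the values of GOT1, GPT2, ASNS and PYCR1 lie closer to 0 without that library while GLUD1 and GLUL barely move.

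An F test of the line by shRNA terms asked whether the response differed between the lines. It passed for GPT2 (adjusted p = 0.0079), GLUL (adjusted p = 0.009), GOT1 (adjusted p = 0.017) and ASNS (adjusted p = 0.029), which is 4 of 9 beside 41.8% of all genes tested. GLUL reads were all but missing in Karpas422, so the term for that line has little to measure. The shRNAs also differed from each other. Over the 3 lines 0 of 9 enzymes were called between shSIRT3-2 and shSIRT3-1, where 11.3% of all genes were, but 2 had an unadjusted p under 0.05. These were GLUD1 (0.35 log2 higher with shSIRT3-2, adjusted p = 0.0059) and GLUL (0.50 higher, adjusted p = 0.0065), both under the fold limit, and edgeR called 1, GLUL. For the 4 enzymes that fell with both shRNAs the differences between the shRNAs ran from −0.45 for ASNS (95% CI −1.03 to 0.13) to −0.10 for PYCR1 (95% CI −0.83 to 0.63). In HBL1 alone 3 of 9 were called between the shRNAs, GLUD1 and GLUL higher and GPT2 lower with shSIRT3-2 (−1.02, SE 0.16, adjusted p = 0.0025), where 27.9% of all genes were.

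Without knockdown the lines held these enzymes at different levels. Per kilobase of the canonical transcript, ASNS was the highest of the 9 in the shCTRL libraries of every line, at 217 ± 37.1 CPM per kb in Karpas422, 113 ± 9.24 in HBL1 and 76.6 ± 62.4 in OCI-Ly1 (mean ± SD, n = 3). PYCR1 ranked next in HBL1 at 86.4 ± 2.39 CPM per kb but was at 8.83 ± 8.63 in OCI-Ly1 and 0.32 ± 0.25 in Karpas422. The means over the lines ran from 26.9 to 33.4 CPM per kb for GOT2, from 11.3 to 16.6 for GLUD1 and from 11.5 to 24.0 for ALDH18A1. GLUL and ALDH4A1 ranked lowest of the 9 in every line.

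**Figure D4:**
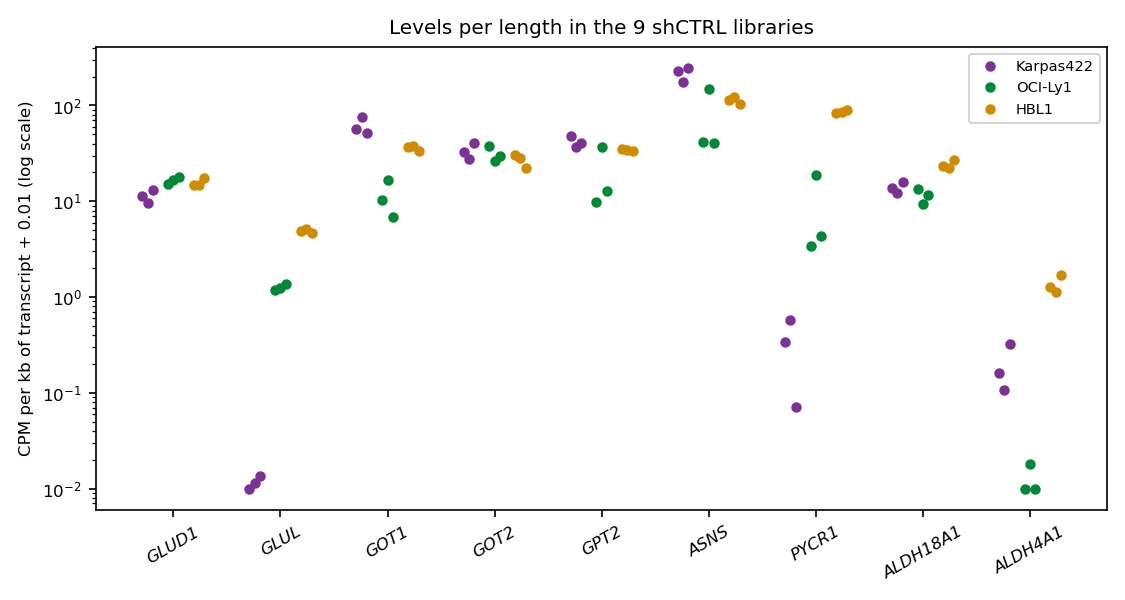
Level per kilobase of canonical transcript (CPM per kb + 0.01, log scale) in the 9 shCTRL libraries, 3 points per line. ASNS is highest in each line, PYCR1 spans from under 1 in Karpas422 to above 80 in HBL1, and GLUL and ALDH4A1 are at or near 0 in Karpas422 and OCI-Ly1 respectively.

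Tested between the lines in the 9 shCTRL libraries, 5 of the 9 enzymes were called between HBL1 and Karpas422, 6 between HBL1 and OCI-Ly1 and 6 between Karpas422 and OCI-Ly1, where 54.6%, 54.6% and 50.8% of all genes were called. The counts are a description, since ALDH4A1 passed the filter through HBL1 alone, and GLUL and (but for 1 library) PYCR1 through HBL1 and OCI-Ly1, where they are high. In shCTRL libraries ALDH4A1 was at 3.51 to 5.33 CPM in HBL1, 0.30 to 0.98 CPM in Karpas422 and at 0 to 3 reads in OCI-Ly1. PYCR1 was higher in HBL1 than in OCI-Ly1 by 3.72 log2 (SE 0.68, adjusted p = 0.00066), GLUL by 1.95 (SE 0.16, adjusted p = 1.3e-06) and ALDH18A1 by 1.07 (SE 0.15, adjusted p = 9.8e-05). ALDH18A1 was also higher in HBL1 than in Karpas422 (0.79, SE 0.15, adjusted p = 0.00088). GOT1 was highest in Karpas422, 2.53 log2 above OCI-Ly1 (SE 0.27, adjusted p = 1.3e-05) and 0.75 above HBL1 (SE 0.27, adjusted p = 0.029). The latter call was lost, at an adjusted p of 0.052 to 0.11, without Karpas422 shCTRL replicate 1 or 2 or any one HBL1 control. ASNS was 1.78 log2 higher in Karpas422 than in OCI-Ly1 (SE 0.42, adjusted p = 0.0035), a call lost without replicate 3 of every line (1.36, adjusted p = 0.07). With all libraries, ASNS in HBL1 differed from neither line beyond the threshold (adjusted p = 0.07 and 0.095). Without OCI-Ly1 shCTRL replicate 2, HBL1 was called in between, 0.93 below Karpas422 (adjusted p = 0.00029) and 1.47 above OCI-Ly1 (adjusted p = 3.3e-05). GPT2 was higher than in OCI-Ly1 by 1.32 log2 in Karpas422 (adjusted p = 0.011) and by 1.03 in HBL1 (adjusted p = 0.033), the HBL1 call being lost without OCI-Ly1 shCTRL replicate 1 or 3 or any one HBL1 control (adjusted p = 0.065 to 0.13) and in edgeR (0.73, adjusted p = 0.12). The HBL1 value was 0.65 without OCI-Ly1 shCTRL replicate 1 and 1.59 without replicate 2. The Karpas422 call of GPT2 was lost without replicate 1 of every line (0.84, adjusted p = 0.11) or replicate 3 of every line (1.15, adjusted p = 0.11). Without OCI-Ly1 shCTRL replicate 2 the other differences from OCI-Ly1 were also larger for the higher genes, with GOT1 at 2.10 in HBL1 and 2.85 in Karpas422, GPT2 at 1.89 and ASNS at 2.40 in Karpas422, and PYCR1 at 4.48 in HBL1. PYCR1 in Karpas422 against OCI-Ly1 was then at −3.75 log2, and at −4.51 with all libraries. GOT2 was not called between any lines, with differences of −0.31 to 0.09 log2.

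Among 44 other genes of glutamine, aspartate, arginine and proline metabolism, 34 passed the filter over the 3 lines. The shSIRT3-1 libraries gave 4 calls of lower RNA (GLUD2, ASS1 and CTPS2 among them) and 1 of higher RNA, the mitochondrial glutamate carrier SLC25A22 (0.73 log2, adjusted p = 0.00012). The shSIRT3-2 libraries gave 2, ASS1 and CTPS2, both lower. These shares of the 34 stand beside the 13.0% and 13.5% of all genes called in either direction. The median fold change of the 34 was −0.01 log2 with shSIRT3-1 and 0.02 with shSIRT3-2. Leaving out replicate 2 of every group left 0 of them called with both. ASS1, which joins citrulline to aspartate in arginine synthesis, reached 1 CPM in HBL1 only, at 46.8, 62.9 and 104 CPM with shCTRL, and its HBL1 knockdown libraries were at 0.69 to 1.54 CPM. Its HBL1 fold change was −5.87 log2 with shSIRT3-1 and −5.61 with shSIRT3-2. These values are a description, since only its HBL1 controls were well above the filter. The calls of ASS1 over the 3 lines came through HBL1. They were lost in limma without replicate 2 of every group (adjusted p = 0.091 with shSIRT3-1 and 0.11 with shSIRT3-2). CTPS2, which aminates UTP to CTP with glutamine, changed by −0.82 log2 (SE 0.15, adjusted p = 0.00015) and −0.70 (SE 0.15, adjusted p = 0.00088). GLS2, a gene of glutamine breakdown at 0.61 to 2.67 CPM, gave 0.37 (adjusted p = 0.029) and −0.18 (adjusted p = 0.3). OAT, ornithine aminotransferase, gave 0.15 (adjusted p = 0.31) and 0.40 (adjusted p = 0.006), and PRODH, proline dehydrogenase, stayed under 0.20 CPM and was not tested.

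The enzymes that fell with both shRNAs were also compared from library to library. After subtracting the mean of each line, Pearson r of log2(CPM + 0.1) over the 27 libraries was 0.95 between GOT1 and ASNS, 0.90 between GOT1 and GPT2, 0.88 between GPT2 and ASNS and 0.76 between ASNS and PYCR1. PYCR1 had 0.72 with GOT1 and 0.62 with GPT2, and GLUD1 had 0.68 with ASNS. The same value was −0.12 between ASNS and GOT2 and −0.19 between ASNS and ALDH18A1, while GOT2 and ALDH18A1 had 0.77. The points share the shRNA groups, the lines and the library depths, and r is given as a description. Of all genes tested, those most like ASNS were YARS (r = 0.98), GARS (0.98) and PSAT1 (0.98). Those most like GOT1 were SARS (0.98), WARS (0.97) and CEBPB (0.97). For GPT2 the first were CALCOCO2 (0.96) and ZBED3-AS1 (0.95), and for PYCR1 they were BCAT1 (0.84), EEF2 (0.82) and SLC12A8 (0.82).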

How the data were processed

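RNA libraries from 27 samples were prepared with random-primed first strands, sequenced as paired ends of 50 bases, aligned to hg19 with STAR and counted on RefSeq genes with Rsubread by the authors, with versions not given in the sources used here. The values the authors deposited are named FPKM, but in every library they are whole multiples of 1 step for genes of any length (100% within 0.01), so they were used as CPM, and reads were recovered by dividing by the step. The design had been written for FPKM, and the test was kept. In 2 OCI-Ly1 libraries (shCTRL replicate 3 and shSIRT3-2 replicate 1) the step nears the last decimal written, and recovered reads are less certain there. The CPM values sum to 40.3% to 45.6% of the total.

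Genes reaching 1 CPM in 3 or more of the fitted libraries were analysed as log2(CPM + 0.1) with limma 3.58.1 (variance trend, R 4.3.3), with terms for line and shRNA over 27 libraries, in each line alone, with line by shRNA terms, and between lines in the shCTRL libraries. Gene positions are GENCODE on hg19, and promoters are RefSeq on GRCh38.p14. Members and lists were chosen with earlier results of these data known. Named genes are the 9 enzymes, SIRT3, listed pathway genes called with both shRNAs plus a few fixed by name (GLS2, GLUD2, OAT and PRODH among them), and the 3 genes most correlated with each enzyme called with both, some of which are not reported here; MYADML2, SLC25A22, DCN, COL1A2 and CD3G were named after their values were seen. Alternatives were pseudocounts of 1 and 0.01, no filter, quantile and median-ratio scaling, a replicate block, edgeR 4.0.16 on recovered reads, and leaving out libraries or lines. Scripts were tested on simulated data.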

Additional observations from a re-analysis of the deposited data

Results flagged for a closer look

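The response to the SIRT3 shRNAs differed between the 3 lines, by the F test on the line by shRNA terms, for 4 enzymes. Adjusted p was 0.0079 for GPT2, 0.009 for GLUL, 0.017 for GOT1 and 0.029 for ASNS. For GPT2, the shSIRT3-2 fold change was −2.40 log2 in Karpas422, −2.85 in HBL1 and −0.62 in OCI-Ly1, the last resting on control libraries at 39.4, 146 and 51.5 CPM. GOT1 with shSIRT3-2 was at −1.78, −1.37 and −0.74 in the same order, and ASNS at −3.50, −2.15 and −1.73. GLUL with shSIRT3-1 was at −0.65 in HBL1 and −0.07 in OCI-Ly1, with 5 reads in all of Karpas422. The share of all genes passing this test was 41.8%, so 4 of 9 is near the background.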

How the results depend on the processing

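The calls of GOT1, GPT2 and ASNS over the 3 lines kept their direction and their side of the threshold with both shRNAs under the alternatives tried, while those of GLUD1 over the lines and of OCI-Ly1 depended on single libraries, as given beside them. No single library ended the PYCR1 calls over the lines, but leaving out replicate 2 of every group ended both, and the shSIRT3-1 call was also lost without OCI-Ly1 (adjusted p = 0.12) or HBL1 (adjusted p = 0.08). Quantile scaling shifted the median of all genes by 0.15 log2 at most (HBL1, shSIRT3-1) and median-ratio scaling by 0.12 (HBL1, shSIRT3-2). Counts of enzymes called moved by over 1.5 times as follows. In OCI-Ly1 with shSIRT3-2 the count was 0 without the filter. In OCI-Ly1 with shSIRT3-1 it was 1 under median-ratio scaling and 1 in edgeR. Between the shRNAs over the lines it was 1 in edgeR and 1 without Karpas422. The F test of the lines passed 2 in edgeR. With shSIRT3-1 over the lines 3 were called without HBL1, and 1 pathway gene was called with both shRNAs without OCI-Ly1, as was 1 without HBL1. Leaving out replicates gave counts of 3 to 6 between HBL1 and Karpas422, 3 to 6 for shSIRT3-1 in HBL1, 0 to 3 and 0 to 2 for shSIRT3-1 and shSIRT3-2 in OCI-Ly1, 0 to 5 in the F test and 0 to 2 for the pathway list.

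The values whose sign turned were uncalled ones near 0. They were, in log2, PYCR1 between the shRNAs (0.12 with pseudocount 1, 0.37 without Karpas422), ALDH4A1 with shSIRT3-1 (0.42 with pseudocount 0.01, 0.050 under quantile scaling, 0.16 without Karpas422) and GLUL with shSIRT3-2 (−0.049 with pseudocount 0.01). GOT2 with shSIRT3-1 turned in OCI-Ly1 under quantile scaling (0.0020), in HBL1 under median-ratio scaling (0.0030) and edgeR (0.0082), and over the lines without Karpas422 (−0.051), and GOT2 between Karpas422 and OCI-Ly1 under median-ratio scaling (−0.018) and edgeR (−0.0042). ALDH18A1 turned with shSIRT3-1 without Karpas422 (−0.044) and between the shRNAs without HBL1 (−0.043). Leaving out replicates gave ALDH18A1 −0.29 to 0.086 in HBL1, −0.086 to 0.16 in OCI-Ly1 and −0.059 to 0.15 over the lines with shSIRT3-1, and −0.10 to 0.15 in OCI-Ly1 with shSIRT3-2. ALDH4A1 with shSIRT3-1 ran from −0.23 to 0.19 and PYCR1 between the shRNAs from −0.32 to 0.081. GOT2 ran from −0.080 to 0.25 between Karpas422 and OCI-Ly1, and with shSIRT3-1 over the lines from −0.050 to 0.062. In the single lines its shSIRT3-1 values ran from −0.23 to 0.0016 (HBL1), −0.12 to 0.14 (OCI-Ly1) and −0.028 to 0.37 (Karpas422), and its shSIRT3-2 values from −0.052 to 0.42 (Karpas422) and −0.080 to 0.19 (OCI-Ly1). The causes were not tested.

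Replicate numbers were not stated to pair the libraries. Same-numbered libraries of a line deviated from their group means together in 26 of 27 pairs (r over 0.1, the exception at 0.014 in Karpas422). Their mean r was 0.32. Of the 54 pairs with unlike numbers, 12 were also over 0.1, and the mean r was −0.14. Deviations within a group cancel out, so this negative mean follows from the positive one and is no separate contrast. Compared with each other group of its line, a library correlated best with its own number in 47 of 54 cases. With the replicate number as a block, 1 enzyme was called in OCI-Ly1 with shSIRT3-1, PYCR1 (adjusted p = 0.047), and no other count moved by over 1.5 times.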
